A study of Mus musculus with 11 samples.

Results

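The 200 array probes described here were those whose levels differed most between livers that had received the same treatment. They were chosen from 26512 probes, 0.754% of the total, by the pooled within-group SD of the log2 level over 11 arrays in 3 groups. That SD is the root of the summed squared deviations from the group means over 8 degrees of freedom. Probes in which all livers of any group lay above, or all below, every other liver were left out (1820 probes), as was a further pair set aside by the rule. The values that chose the probes were the deviations themselves, so their spread is described here and not tested.

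Total RNA from lysates of whole livers of C57BL6n iAST mice, aged 12 to 15 weeks by the labels, was measured on 1-colour Illumina bead arrays. The livers were labelled tumour liver. They came from mice given oral vehicle for 14 d (vehicle, n = 3), oral Sorafenib at 60 mg/kg for 14 d (14 d, n = 4) or oral Sorafenib at 60 mg/kg for 83 d (long-term, n = 4). The only vehicle group was at 14 d, so in the long-term livers longer exposure and the later day cannot be told apart. The labels give the same age range for all 3 groups. The labels do not give the iAST alleles, which every group carried, nor the sex, feeding state or time of day at collection, nor the share of tumour in each lysate. Nothing in the labels says that each array came from a separate mouse, so the spread between arrays may be technical in part. In a lysate of a whole organ, fewer cells of a type and less RNA per cell cannot be told apart.

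Sorafenib is a kinase inhibitor directed at RAF signalling and at receptors for vessel growth factors. Liver transcripts as a class are known for wide differences between animals, because metabolic, clock-driven, hormone-driven and acute-phase genes follow feeding, time of day, sex and inflammation. In a liver that carries tumours the ratio of tumour to surrounding tissue, vessels and immune cells also differs from lysate to lysate. The probes below are given by identifier and not by gene, because no annotation of these probes was used here, and the fixed lists of liver cell type markers and pathways could not be applied. None of these sources of spread was tested.

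The chosen probes spanned pooled SDs of 0.403 to 1.10 on the log2 scale, with a median of 0.510. The median over all probes was 0.0715, and over the 13256 brighter probes, those above the median mean level, it was 0.116. A total of 103 chosen probes had an SD of 0.5 or more and 18 an SD of 0.75 or more. The limit fell in a continuous range: the last 3 probes inside had SDs of 0.403245, 0.403216 and 0.402717, and the first 3 outside 0.402284, 0.40204 and 0.401206. Over all probes 250 reached the SD of the last chosen probe, of which 48 were left out because a group stood apart and 2 were the pair that was set aside.

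**Figure D1:**
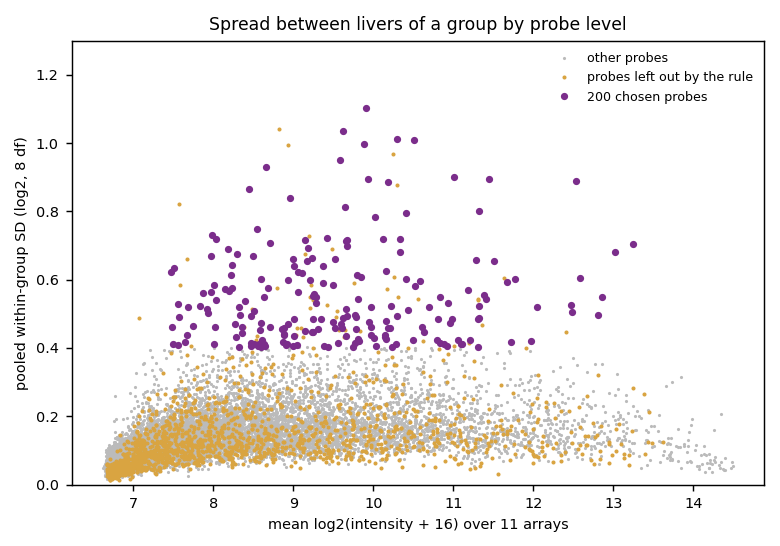
Each point is a probe, with its mean log2(intensity + 16) over the 11 arrays on the x axis and its pooled within-group SD on the y axis. The 200 chosen probes (purple) lie at or above an SD of 0.403 and at mean levels of 7.47 to 13.25. The median level over all probes is 6.84, and probes near the background have small SDs.

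All 200 were among the brighter probes, and 193 lay above the upper quartile of mean level. Their mean levels ran from 7.47 to 13.25 with a median of 9.49, against quartiles of 6.74 and 7.61 over all probes. Dim probes carry a background in their intensity that narrows any spread on the log scale, so a low SD there does not show a steady transcript.

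Expressed as the ratio of the highest to the lowest liver within a group, the spread was usually about 2-fold. In vehicle livers the median ratio over the 200 probes was 2.17, with a highest value of 10.2, and 121 probes reached 2-fold. The 14 d livers had a median ratio of 1.91 and a highest of 8.01, and 87 probes reached 2-fold. For long-term livers the median was 2.12 and the highest 8.67, and 111 probes reached 2-fold. Among the brighter probes as a whole 1.18% to 1.70% reached 2-fold in a given group. Those probes are not matched for level, with a median of 7.61 against 9.49, and the 200 were chosen on their spread. A 2-fold range was present in 1 group for 95 of the chosen probes, in 2 groups for 79 and in all 3 groups for 22. The remaining 4 stayed below 2-fold in each group. Most of the 200 thus reached a 2-fold range in 1 or 2 of the 3 groups. The median range of 1.91 in the 14 d livers lay just under that cut.

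The widest spread of any eligible probe was that of ILMN_2600744, with a pooled SD of 1.10. It read 9.37, 11.07 and 7.72 in vehicle replicates 1 to 3. In 14 d replicates 1 to 4 it read 11.56, 10.68, 12.17 and 10.90, and in long-term replicates 1 to 4 it read 9.97, 9.28, 8.39 and 7.81. Vehicle replicate 2 lay among the 14 d livers while vehicle replicate 3 lay below all long-term livers, a 10.2-fold difference within 1 group. The 14 d and long-term livers did not overlap, but the vehicle livers bridged both.

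ILMN_2731963 had a pooled SD of 1.04. Its levels were 8.90, 10.12 and 8.40 with vehicle, 10.65, 9.75, 10.06 and 8.75 at 14 d, and 9.94, 10.12, 11.09 and 7.97 in the long-term livers, in order of replicate. Long-term replicates 3 and 4 were the highest and the lowest of all 11 livers, 8.67-fold apart, and the 3 groups overlapped throughout.

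ILMN_2943135 followed it closely, with a pooled SD of 1.01. It read 10.06, 11.11 and 9.12 with vehicle, 11.70, 10.87, 10.73 and 9.76 at 14 d, and 10.58, 10.85, 11.88 and 8.98 long-term. Long-term replicate 3 was again the highest liver and long-term replicate 4 the lowest. The deviations of ILMN_2731963 and ILMN_2943135 from their group means correlated at r = 0.98 over the 11 arrays, the highest value for either with any chosen probe. The difference between their log2 levels ranged from -1.16 to -0.64. Whether they measure 1 transcript or several is not known here.

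ILMN_2903945, with a pooled SD of 1.01, had another order. Its levels were 8.63, 10.56 and 9.76 with vehicle, 11.10, 9.01, 11.85 and 10.89 at 14 d, and 11.33, 9.83, 10.67 and 9.57 long-term. Its widest range was at 14 d, 7.17-fold between replicates 3 and 2, which were both on the same chip. With ILMN_2943135 its deviations correlated at r = 0.29, and its closest partner was the chosen probe at place 20 in order of SD, at r = 0.97. The next 6 probes in that order had SDs of 0.894 to 0.997.

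**Figure D2:**
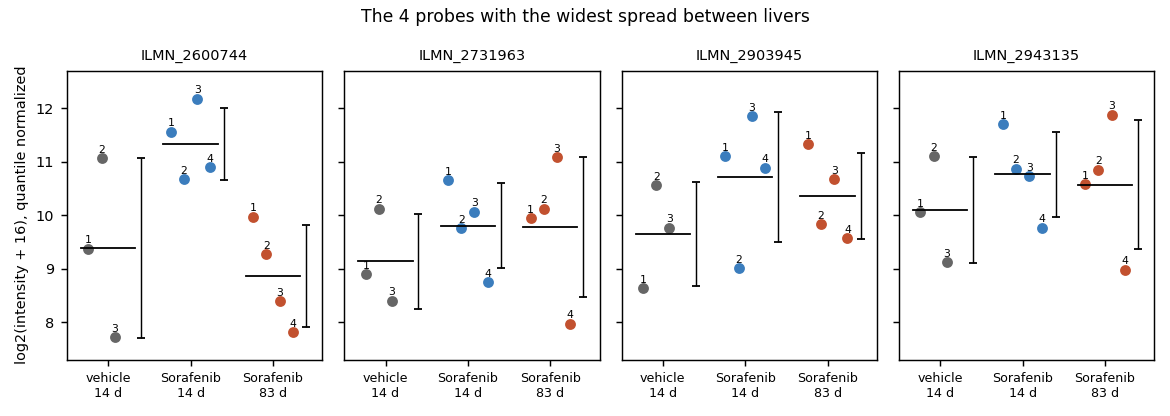
Normalized log2(intensity + 16) of the 4 probes with the highest pooled SD in each liver, by group, with the replicate number above each point; the horizontal bar is the group mean and the bracket beside it the mean ± SD (n = 4 in both Sorafenib groups and n = 3 in the vehicle group). In ILMN_2731963 and ILMN_2943135 long-term replicate 3 was the highest and long-term replicate 4 the lowest of the 11 livers.

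Single livers accounted for much of the spread. Long-term replicate 3 held 16.8% of the summed squared deviations of the 200 probes, vehicle replicate 2 held 15.4% and vehicle replicate 3 held 13.6%. The other 8 livers held 3.83% to 8.68% each, the lowest being long-term replicate 2. Over all brighter probes the same 3 livers held 12.6%, 12.6% and 11.4%, and 14 d replicate 4 held 11.5%. The brighter probes include the 200 chosen ones, so these shares are not an independent background.

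Long-term replicate 3 deviated most of the 11 livers in 59 of the 200 probes (29.5%), against 12.4% of the brighter probes. In 42 of the 59 it was low and in 17 high. Vehicle replicate 2 deviated most in 35 probes, 26 of them high, and vehicle replicate 3 in 34, 22 of them low. Long-term replicate 3 lay outside the range of the other 3 long-term livers in 156 of the 200 probes (78.0%), below it in 81 and above it in 75, against 56.5% of the brighter probes. Without this liver the median SD of the long-term group over the 200 probes was 0.333, against 0.496 with it.

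**Figure D3:**
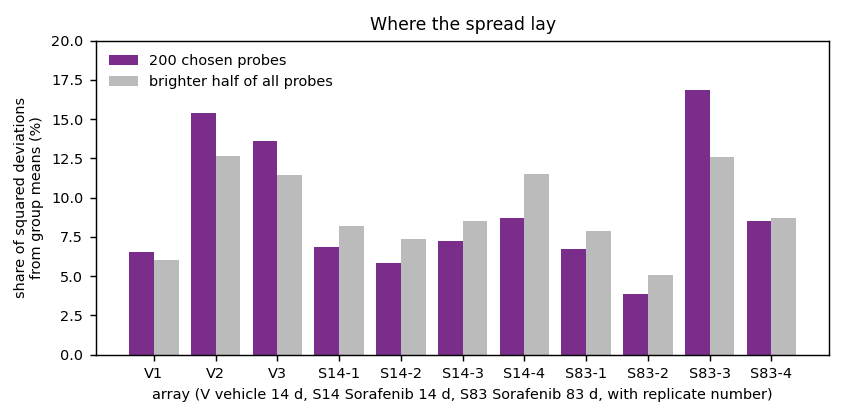
Share of the summed squared deviations from the group means (percent, y axis) that each of the 11 livers held (x axis), for the 200 chosen probes (purple) and the 13256 brighter probes (grey). Long-term replicate 3 (16.8%), vehicle replicate 2 (15.4%) and vehicle replicate 3 (13.6%) hold the highest shares among the chosen probes.

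By group, the vehicle livers had a median SD of 0.584 over the chosen probes, the 14 d livers 0.419 and the long-term livers 0.496. For 102 probes (51.0%) the vehicle group had the highest SD of the 3, for 64 the long-term group and for 34 the 14 d group. Over the brighter probes the vehicle group had the highest SD in 35.2%. Without long-term replicate 3 the vehicle group was widest in 117 probes, the 14 d group in 58 and the long-term group in 25. The vehicle SD rests on 3 livers and the others on 4, and the probes were chosen on these SDs, so no difference in spread between the groups was tested.

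The chip differed within the 14 d group only: replicate 4 shared a chip with the vehicle and long-term livers, and replicates 1 to 3 were on a second chip. The 14 d group held 28.6% of the summed squared deviations of the chosen probes, and all other deviations were between arrays of the same chip. In 122 of the 200 probes 14 d replicate 4 lay outside the range of replicates 1 to 3, above it in 51 and below it in 71, a share of 61.0% against 57.2% of the brighter probes. Among the 3 livers of the second chip the median SD was 0.333. With deviations taken from the mean of each group on each chip, 177 of the 200 had an SD of at least 0.403. In that setting replicate 4 has no deviation, and the SD has fewer degrees of freedom than the one that set the limit. Most of the squared deviations came from vehicle and long-term livers, which the setting does not touch. Nothing about the chip is therefore read from this count, and an effect of the chip was not tested.

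In most of the chosen probes no gap between neighbouring livers exceeded 50% of the range. The largest gap, with the livers ordered over all 11, took up a median of 28.4% of a probe's range. It exceeded 50% of the range in 18 of the 200 probes (9%), against 3.54% of the brighter probes. The choice had left out probes with a group that stood apart. It had also left out the pair set aside, whose largest gaps took up 44.1% and 72.6% of the range. A gap below 50% therefore does not show a graded profile.

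Many of the chosen probes deviated together. Of their 19900 pairs, 604 (3.04%) had deviations that correlated above 0.8 over the 11 arrays and 290 (1.46%) below -0.8. For pairs among the other 13056 brighter probes the shares were 0.658% and 0.630%. Those probes were not matched to the 200 for level. Probes chosen for large deviations in the same few livers can also correlate through those livers alone. A partner with r above 0.9 existed for 103 of the 200, and 43 had one above 0.95. These counts take the best of many partners and are given without a counterpart for other probes. All such correlations rest on the same 11 arrays, with 8 degrees of freedom, and are descriptions. The first principal component of the deviations held 32.8% of their sum of squares, against 25.9% in the brighter probes, the chosen 200 included. It set vehicle replicate 2 (0.62) and long-term replicate 3 (0.45) against vehicle replicate 3 (-0.46) and long-term replicate 4 (-0.28). The second held 24.5% and set long-term replicate 3 (0.61), vehicle replicate 3 (0.40) and 14 d replicate 4 (0.40) against long-term replicate 1 (-0.34).

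Average-linkage clustering of the deviations, cut at a correlation distance of 0.4, gave 5 sets of 10 or more probes, which held 105 of the 200. The other 95 were in smaller sets or alone. The sets were formed from the deviations, so their patterns are described only.

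The set of 36 probes was marked by long-term replicate 3, which was the lowest long-term liver in 35 of them. Its mean deviation there was -0.97 on the log2 scale. In long-term replicates 1, 2 and 4 the mean deviations were 0.61, 0.27 and 0.10. In the 14 d livers they were -0.05, 0.19, 0.21 and -0.35, with replicate 4 the lowest 14 d liver in 27 probes, and in the vehicle livers 0.07, 0.08 and -0.15. The median correlation between its probes was 0.717, with 0.406 when long-term replicate 3 was left out and 0.809 when the vehicle livers were. The set was formed with that replicate included, so a lower value without it follows in part from the clustering.

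The set of 34 probes, which holds ILMN_2731963 and ILMN_2943135, had vehicle replicate 2 as the highest of the vehicle livers in all 34. The vehicle livers deviated by -0.30, 0.85 and -0.55 on average. Long-term replicates 1 to 4 deviated by -0.06, 0.12, 0.57 and -0.63, with replicate 3 the highest of the long-term livers in 28 probes and replicate 4 the lowest in 31. The 14 d livers deviated by 0.27, -0.24, -0.00 and -0.03, the narrowest range of the 3 groups. The median correlation within this set was 0.703, with 0.680 when long-term replicate 3 was left out and 0.581 when the vehicle livers were.

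The set of 13 probes was high in the same 2 livers, at 0.62 in vehicle replicate 2 and 0.78 in long-term replicate 3. It differed from the set of 34 in the other long-term livers, at -0.56 in replicate 1, -0.40 in replicate 2 and 0.17 in replicate 4. The set of 12 ran the other way, with vehicle replicate 2 the lowest of the vehicle livers in all 12 probes, at -0.71, and vehicle replicate 3 at 0.49. In this set 14 d replicate 4 was the highest 14 d liver in all 12, at 0.57, while replicates 1 to 3 on the second chip lay at -0.19, -0.09 and -0.29. For these 12 probes, as for every set, the chip and the liver cannot be told apart between 14 d replicate 4 and replicates 1 to 3. The mean deviations of the sets of 13 and 12 correlated at r = -0.80.

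The set of 10, with ILMN_2600744 among its probes, separated the vehicle livers most widely. Of the 3 vehicle livers replicate 2 was highest and replicate 3 lowest in all 10 probes, at 0.99 and -0.93, with replicate 1 at -0.06. The 14 d livers lay at 0.15, 0.11, 0.25 and -0.51, with replicate 4, on the shared chip, the lowest of them in 8 of the 10 probes. The long-term livers lay at 0.40, 0.25, -0.30 and -0.35.

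**Figure D4:**
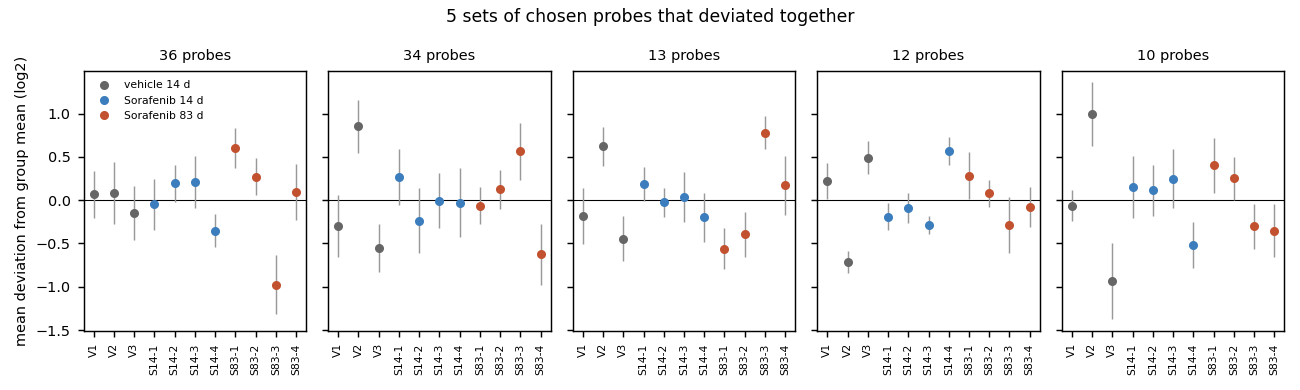
Mean deviation from the group mean (log2, y axis) of the 5 sets of chosen probes in each of the 11 livers (x axis); bars are the SD over the probes of a set, and V, S14 and S83 stand for vehicle, 14 d and long-term with the replicate number. The set of 36 is lowest in long-term replicate 3 (-0.97), and the sets of 34, 13 and 10 are highest among the vehicle livers in replicate 2.

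**Figure D5:**
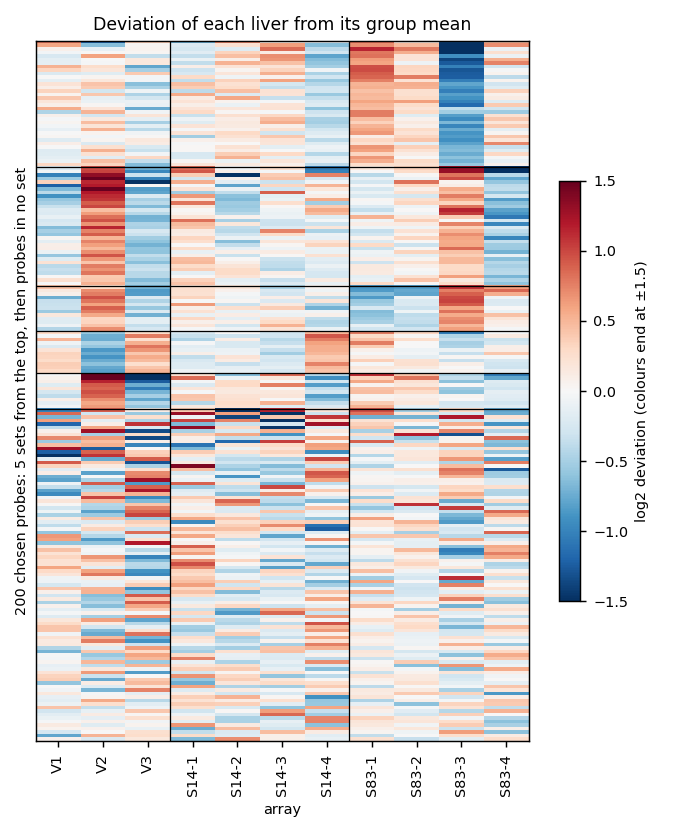
Deviation of each of the 11 livers (columns) from its group mean for the 200 chosen probes (rows), red above and blue below, with the 5 sets from 36 to 10 probes at the top and the 95 other probes underneath. The block of low values in long-term replicate 3 and the blocks of high values in vehicle replicate 2 are the widest features.

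Spread in a group that had no part in the choice was measured by choosing 200 probes anew from the other 2 groups, with no exclusion of separated probes. Probes chosen from the 2 Sorafenib groups had a median SD of 0.365 in the vehicle livers, against 0.102 for the brighter probes, and 104 of the 200 exceeded the 95th percentile of the brighter probes, 0.345. Those chosen from the vehicle and long-term livers had a median SD of 0.356 in the 14 d livers, and 123 exceeded the 95th percentile of 0.301. Those chosen from the vehicle and 14 d livers had a median SD of 0.359 in the long-term livers, and 127 exceeded 0.288. The chosen probes were also brighter, with median levels of 9.28 to 9.49 against 7.61. An SD above the 95th percentile recurred in the left-out group for 52.0% to 63.5% of the probes. Between 5 and 14 of the 200 had an SD below the brighter median there.

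Joint deviation recurred to a lesser extent. Pairs of the 200 probes that correlated above 0.8 over the arrays of 2 groups had a median correlation of 0.58 in the vehicle livers, 0.33 in the 14 d livers and 0.32 in the long-term livers when the group was left out. Over all pairs of the 200 the medians were 0.14, 0.02 and 0.05. Positive values made up 62.8%, 66.9% and 61.6% of these pairs, against 53.1%, 51.1% and 51.9% of all pairs. Pairs that correlated below -0.8 over 2 groups had medians of -0.28, -0.14 and -0.11 in the group left out, and 57.6%, 55.9% and 55.0% of them were negative there. Correlations within 3 or 4 arrays are coarse, and the probes themselves had been chosen with all 11.

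Between the treatments the chosen probes were described with the same fit as all probes (limma on all 11 arrays, adjusted p under 0.05 over 26512 probes). At 14 d against vehicle 8 of the 200 passed, 2 higher and 6 lower, where 1.17% of all probes passed. In the long-term livers against vehicle 28 passed, 16 higher and 12 lower, against 2.88% of all probes. Between long-term and 14 d livers 16 passed, of which 14 had the higher level after 83 d and 2 after 14 d, against 1.43% of all probes. The choice left out probes with a separated group and used the spread of the same arrays, so nothing is read from these shares. Comparisons that share vehicle or 14 d livers are also not independent of each other. Across the 3 comparisons 41 of the 200 passed at least once, a count given without a share over all probes, from which nothing is read.

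The group differences of the chosen probes were spread about 0. Their median log2 difference was 0.02 at 14 d against vehicle (range -1.76 to 1.94), 0.08 long-term against vehicle (-2.12 to 2.29) and 0.12 long-term against 14 d (-2.47 to 1.68). Over all 26512 probes each of the 3 medians rounded to 0. The median SE of the 14 d difference was 0.27 for the chosen probes and 0.10 for the brighter ones. A difference of at least 2-fold was measured in 19, 35 and 22 of the 200, of which 7, 27 and 12 passed the threshold. In the other 12, 8 and 10 a 2-fold difference between group means did not pass it. Nothing is read from these counts, which are given without a counterpart over all probes.

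The mean levels of the sets in the 3 groups are given without a test, because probes of a set move together and are not replicates, and because the choice had left out probes with a separated group. The set of 36 had a mean level of 9.69 with vehicle, 9.86 at 14 d and 10.23 long-term. Its long-term livers ranged from 9.25 to 10.83, so that long-term replicate 3 lay below all vehicle livers, which were at 9.54 to 9.78. The set of 12 had mean levels of 9.68, 9.20 and 9.23, and vehicle livers at 8.97 to 10.17 covered the 14 d livers except replicate 3, at 8.91. The set of 10 had mean levels of 9.31, 9.80 and 9.99, and its vehicle livers ranged from 8.38 to 10.30. The set of 34 had mean levels of 9.30, 9.44 and 9.34. In each of these 4 sets the livers of different groups overlapped.

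The calls among the chosen probes depended on the variance model and on single livers. Without an intensity trend in the variance, which draws the SEs of such probes toward those of other probes of like level, 0, 10 and 0 of the 200 passed limma in the 3 comparisons, against 0.705%, 2.49% and 0.969% of all probes. Of the 200, 38, 55 and 50 then had an unadjusted p under 0.05, against 10.2%, 13.5% and 11.5% of all probes. With the trend the unadjusted counts were 56, 84 and 86, against 9.76%, 13.1% and 11.3%. At 14 d against vehicle the count fell from 8 to 5 without 14 d replicate 1 or 2 and to 3 without 14 d replicate 3 or vehicle replicate 1. It was 16 without 14 d replicate 4, 15 without vehicle replicate 2 or long-term replicate 3, and 17 without vehicle replicate 3. Long-term against vehicle it changed from 28 to 18 without long-term replicate 1 and to 16 without long-term replicate 2 or vehicle replicate 3. Long-term against 14 d it changed from 16 to 8 without 14 d replicate 3, 4 without long-term replicate 1 and 6 without long-term replicate 2. It was 35 without long-term replicate 3, 27 without vehicle replicate 2 and 25 without vehicle replicate 3, where 473, 454 and 433 of all probes passed. These 3 livers held the largest shares of the deviations that chose the 200. Higher counts without them, also at 14 d against vehicle, can therefore follow from the choice itself. Over all probes the counts with 1 array left out were 199 to 424, 483 to 845 and 194 to 473, from 309, 763 and 378. A chip term leaves the 14 d livers represented by replicate 4 alone in the comparisons that involve them. When a chip term was fitted, 1, 33 and 5 of the 200 passed, against 0.0226%, 3.18% and 0.362% of all probes.

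Of the 4 probes with the highest SDs, ILMN_2600744 passed in 1 comparison. Its level differed between long-term and 14 d livers by a log2 value of -2.47 ± 0.51 (SE; limma, adjusted p = 0.0152). At 14 d its mean exceeded that of vehicle by 1.94 ± 0.55 (SE; limma, adjusted p = 0.117), which did not pass. The first of these calls was lost without an intensity trend (limma, adjusted p = 0.137). It was also lost without 14 d replicate 1 (0.0508), 14 d replicate 3 (0.0688) or long-term replicate 4 (0.0617). With a chip term and on the shared chip alone the call was lost too. In these 2 settings the comparison rests on 14 d replicate 4 alone for 14 d, and the log2 difference was -2.04 in each. ILMN_2731963, ILMN_2903945 and ILMN_2943135 passed in none of the 3 comparisons, with limma adjusted p of 0.519 to 0.994.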

How the data were processed

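The deposited table held an intensity for 26512 probes on each of 11 arrays. Its values looked linear, and how the authors processed them is not given in the sources used here. Array medians were 98.7 to 99.9 and the lowest intensity was 74.1, so a background remained. Levels are log2(intensity + 16) after quantile normalization over the 11 arrays. Groups came from the source labels. Groups were tested by limma 3.58.1 under R 4.3.3 (lmFit on 11 arrays, eBayes with an intensity trend, two-sided, Benjamini-Hochberg over all probes). The choice and clustering used Python 3.11.15 with scipy 1.17.1, and figures matplotlib 3.10.9. The fit and the choice were tested on simulated data. Alternatives were no quantile normalization, offsets of 1 and 50, brighter probes, the chip as a term, the shared chip alone, the replicate number as a block, no intensity trend and leaving out each array. The probes named were the 4 with the highest SD, the rule for the case that no table of genes is at hand. The probes and lists were chosen with earlier results of these data known.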

Additional observations from a re-analysis of the deposited data

Results flagged for a closer look

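Long-term livers were compared directly with 14 d livers. There were no vehicle livers of 83 d, so longer exposure and the later day cannot be told apart in this comparison. The difference passed the threshold in 16 of the 200 chosen probes (limma, adjusted p under 0.05), where 1.43% of all probes passed. The choice used the same arrays, so nothing is read from this share. Among them ILMN_2600744 was lower in the long-term livers by a log2 difference of -2.47. With the chip as a term, 5 of the 200 passed this comparison, and 96 of all 26512 probes.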

How the results depend on the processing

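The number of the 200 probes chosen again was 193 without quantile normalization, 192 and 185 with offsets of 1 and 50, 176 with the chip as a term, 157 on the shared chip alone and 150 to 187 when 1 array was left out, lowest without long-term replicate 3. With 1 group left out of the choice and separated probes not excluded, both changed together in an alternative added after the data were seen, 137 to 152 were chosen again. Tree cuts of 0.3 and 0.5, also added later, put 82 and 141 of the 200 in sets of 10 or more, against 105.

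Counts over all probes moved more. At 14 d against vehicle 309 passed, but 6 with the chip as a term, 2 on the shared chip alone, 187 without an intensity trend and 199 to 424 with 1 array left out, lowest without vehicle replicate 1. Long-term against 14 d 378 passed, but 96 with the chip as a term, 77 on the shared chip and 194 to 473 with 1 array left out, fewest without long-term replicate 1 (194), long-term replicate 2 (227) and 14 d replicate 3 (250). Long-term against vehicle 763 passed, and 483 to 845 with 1 array left out, lowest when vehicle replicate 1 (483) or 3 (496) was missing. The causes were not tested, except that the chip settings leave 1 array of 14 d on the shared chip. Among the 200, the counts with 1 array left out were 3 to 17, 16 to 41 and 4 to 35 in the order of the report. The log2 difference of ILMN_2600744 between long-term and 14 d was -2.83 to -2.04 over 19 alternatives, with adjusted p of 0.00145 to 0.519, and its call was lost in 6.

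Replicate numbers are shared between groups, but with the replicate number as a block 162 of the 200 were chosen again and 340, 768 and 359 probes passed in the 3 comparisons, with 15, 39 and 23 of the 200. Deviations of the 10 pairs with the same number correlated at -0.10 to 0.12 over the brighter probes. Over the 200 chosen probes they correlated at -0.20 to 0.22. Of the 11 arrays, 1 correlated best with its own number. These values do not settle whether the numbers pair the livers. The number of arrays limits precision, and signal near background limits the spread that dim probes can show.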
